A study of Mus musculus with 16 samples.

Results

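The genes described here are 40 listed genes of homologous recombination, the Fanconi anaemia pathway and the DNA damage checkpoint, out of 30027 distinct names on a mouse whole-genome array. The list names them, and its rule uses no measured value, although the members were chosen with earlier results of these data known. A probe was found for 39 of them (69 probes), and Fancf had none under that name. Of these, 36 passed the filter on dim probes, as did 15399 genes of the whole array. Bard1, Palb2 and Dmc1 were well above background on too few arrays to be tested, so nothing is said of their change. H2afx, the histone H2A variant phosphorylated at breaks, is called H2ax in current annotation.

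Gene expression was measured in B16-BL6 melanoma, a mouse tumour line grown here in male C57BL/6J mice aged 8 weeks. The 16 tumour preparations fell into 4 groups of 4: control tumours with neither treatment, tumours given ALA alone at 50 mg/kg, tumours given fractionated X-ray alone, and tumours given both, with the same local ALA dose ahead of each X-ray fraction, called the combined group here and ALA plus X-ray in plots. Each preparation was hybridised to its own 1-colour array, and the labels describe each one as coming from a mouse without numbering the animals. The X-ray dose, the number of fractions and the time from the last fraction to sampling are not given in the sources used here. Each of 4 slides carried 1 array of every group. Slide and replicate number were the same on all 16 arrays, and each group kept its own position on every slide, so that position and group cannot be told apart.

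Homologous recombination repairs a double-strand break by copying an intact sister chromatid, and so works in S and G2 phase. Ends are resected to single strands, these strands are made ready for pairing with the help of BRCA2, and the joined molecules are then taken apart by helicases and nucleases. The Fanconi pathway uses the same machinery to remove crosslinks between strands, with a core complex that ubiquitinates FANCD2 and FANCI. ATM and ATR are the kinases that sense the damage, and CHEK2 and CHEK1 carry their signal to the cell cycle. Most of these proteins are regulated by modification after synthesis, which an RNA array does not see, and many of their genes are transcribed mainly in dividing cells.

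Promoter sequence was examined because many members changed together. RefSeq windows of GRCm38.p6, from 250 bases before to 50 bases after the annotated start, were found for 32 of the 40 members. The letters searched on both strands were TTCCCGC, then TTGGCGC, then TTCGCGC, then TTGCCGC, the core of sites bound by E2F factors, which drive genes at the entry to S phase. At least 1 match lay in 19 of the 32 members' windows (59.4%), against 10.9% of 27025 genes. Members' windows are rich in G and C (median 60% against 52.7% over all windows), and windows with a GC content between the members' quartiles (56.8% to 62.7%) held a match in 14.6%. The same letters with a further T in front, which are contained in that count, were in 8 windows (25%, against 2.6%). CCAAT was in 16 (50%, against 41.1%), and TTTGAA in 3 (9.38%, against 20.2%). The windows of 4 members that fell and of Brca1, the member that went the other way, are printed 5′ to 3′ on the gene's strand, with the match, here in its reverse complement form, in capitals.
Chek1 promoter, chr9:36726609-36726908, strand -: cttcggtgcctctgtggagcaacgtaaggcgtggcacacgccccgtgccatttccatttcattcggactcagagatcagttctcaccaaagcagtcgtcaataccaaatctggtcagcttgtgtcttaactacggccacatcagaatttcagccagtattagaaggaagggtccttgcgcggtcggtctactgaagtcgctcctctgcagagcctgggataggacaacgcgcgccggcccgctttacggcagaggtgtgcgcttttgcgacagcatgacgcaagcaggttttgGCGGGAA
Fancb promoter, chrX:164980342-164980641, strand +: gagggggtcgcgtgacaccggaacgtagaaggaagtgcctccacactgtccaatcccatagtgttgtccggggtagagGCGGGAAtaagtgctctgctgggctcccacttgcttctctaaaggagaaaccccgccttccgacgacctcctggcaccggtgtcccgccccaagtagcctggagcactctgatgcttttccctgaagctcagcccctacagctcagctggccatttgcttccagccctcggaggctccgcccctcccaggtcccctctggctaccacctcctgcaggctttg
Brip1 promoter, chr11:86201144-86201443, strand -: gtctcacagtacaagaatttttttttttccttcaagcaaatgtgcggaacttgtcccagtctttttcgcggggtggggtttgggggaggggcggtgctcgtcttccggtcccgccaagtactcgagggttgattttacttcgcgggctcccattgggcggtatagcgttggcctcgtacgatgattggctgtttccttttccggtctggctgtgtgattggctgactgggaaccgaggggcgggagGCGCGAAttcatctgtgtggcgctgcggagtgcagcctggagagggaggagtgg
Brca2 promoter, chr5:150522371-150522670, strand +: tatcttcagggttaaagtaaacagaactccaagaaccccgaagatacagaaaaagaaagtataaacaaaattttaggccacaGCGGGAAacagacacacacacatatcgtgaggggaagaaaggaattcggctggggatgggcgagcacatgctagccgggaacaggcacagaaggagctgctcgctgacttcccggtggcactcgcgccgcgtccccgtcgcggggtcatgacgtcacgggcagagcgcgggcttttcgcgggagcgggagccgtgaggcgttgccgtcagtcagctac
Brca1 promoter, chr11:101551906-101552205, strand -: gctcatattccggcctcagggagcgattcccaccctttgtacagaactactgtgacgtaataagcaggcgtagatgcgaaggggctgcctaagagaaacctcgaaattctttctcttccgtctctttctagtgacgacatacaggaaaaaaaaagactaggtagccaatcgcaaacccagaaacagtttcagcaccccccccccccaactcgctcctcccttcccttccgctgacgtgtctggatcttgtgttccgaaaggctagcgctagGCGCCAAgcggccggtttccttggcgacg
A match of letters is a description and not a bound site. Among tested members 10 of 16 with a match fell after irradiation (median log2 change -0.59), and 9 of 12 without one did (median -0.35). Brca1 and Brca2 both carried a match, and their values moved in opposite directions with the combined treatment.

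All levels below are log2 signals relative to the 75th percentile of the same array, so a level of 0 is the brightness at that percentile. A difference of 1 is a doubling. Levels are compared between arrays for 1 probe and never between genes. In a whole tumour, fewer cells of a type and less RNA per cell cannot be told apart. The 75th percentile of signal ran from 213 to 521 over the arrays and was highest in the combined group (366 to 521), with 44.3% to 53.6% of spots well above background and 0 saturated. Array pairs within a group correlated at 0.927 to 0.984. Melanocyte markers, which mark the tumour's own lineage, were well above background, with all 10 tested. Cdkn1a, a p53 target that stops the cell cycle, rose by 1.75 in irradiated tumours (SE 0.15, adjusted p = 0.000158 by limma).

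Irradiation lowered most of the members. Over the 8 irradiated arrays (X-ray with or without ALA) against the 8 unirradiated ones, 26 of 36 members fell and 0 rose at an adjusted p under 0.05. Over all genes 25.4% were called in this comparison, 15.1% lower and 10.3% higher. The members' median log2 change was -0.44 and that of all genes was -0.06. Without adjustment 29 members had p under 0.05, and under other processing 0 or 1 member was called higher. With arrays scaled on the median of all probes 14 members fell (38.9%), and 12% of all genes were called in either direction. The share of all calls that were lower was 40.6% in place of 59.5%. The members' median was -0.43 in that scaling. Of the 26 calls, 14 were made in all 9 alternatives and in all 16 fits that left out 1 array. In 7 (Rad51c, Xrcc2, Xrcc3, Rad50, Fancc, Atr and H2afx) the call was lost in most of the fits that left out 1 array, and their adjusted p lay between 0.0323 and 0.0482 with all arrays.

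**Figure D1:**
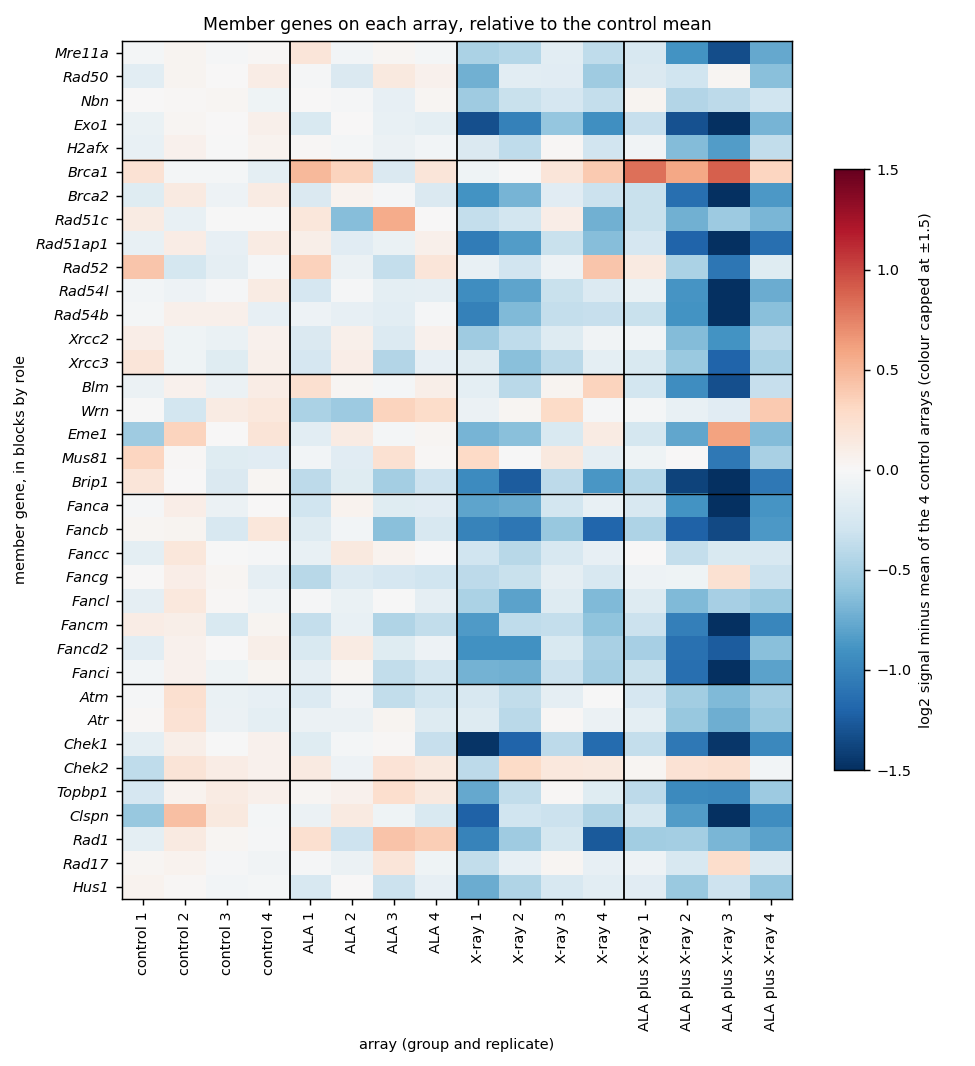
Heatmap of 36 member genes (rows, in blocks by role) on 16 arrays (columns, by group and replicate); colour is the log2 signal minus the mean of the 4 control arrays, capped at ±1.5, blue for lower and red for higher. The X-ray and ALA plus X-ray columns are mostly blue, palest in ALA plus X-ray 1 and X-ray 3, and Brca1 is the red row under ALA plus X-ray.

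**Figure D2:**
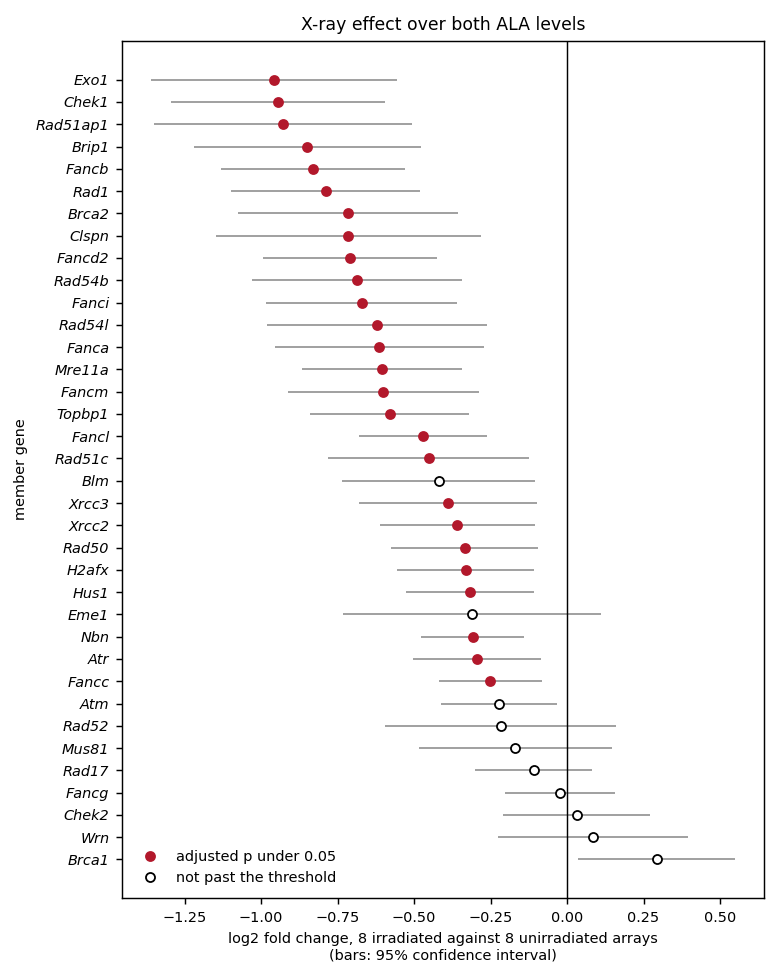
Log2 fold change of each of the 36 tested members, 8 irradiated against 8 unirradiated arrays, with its 95% confidence interval; filled points have an adjusted p under 0.05. All 26 filled points lie below 0, and Brca1, Wrn and Chek2 lie above it.

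Of the genes that sense and resect the break, 5 of 5 tested members were called lower over the irradiated arrays, against 15.1% of all genes. The same share of all genes stands beside the counts of the other roles below. No role was tested as a whole. Exo1, the exonuclease that extends resection, read 2.41, 2.54, 2.52 and 2.59 on the control arrays, 2.28, 2.52, 2.40 and 2.37 on ALA, 1.20, 1.50, 1.94 and 1.60 on X-ray and 2.17, 1.21, 0.54 and 1.82 on combined arrays. Every irradiated array lay below every unirradiated one, and combined 1, at 2.17, came closest. Exo1 fell by 0.96 (log2; SE 0.19, adjusted p = 0.00363 by limma), to 51.5% of the unirradiated mean. Mre11a, the nuclease of the complex that first binds the end, read 1.63, 1.70, 1.64 and 1.67 on the control arrays, 1.84, 1.62, 1.70 and 1.64 on ALA, 1.19, 1.23, 1.50 and 1.28 on X-ray and 1.42, 0.77, 0.33 and 0.89 on combined arrays. The ranges did not overlap here either, and 3 of the 4 combined arrays were lower than all the X-ray arrays. Mre11a fell by 0.60 (SE 0.12, adjusted p = 0.00426). Its partners in that complex fell too, Nbn by 0.31 and Rad50 by 0.33 (adjusted p = 0.0134 and 0.0421). The Rad50 call was made in 7 of 9 alternatives and in 6 of 16 fits with 1 array left out. A second Nbn probe fell by 0.53 (adjusted p = 0.0152 with each probe tested on its own). H2afx read 4.34, 4.51, 4.44 and 4.50 on the control arrays, 4.47, 4.42, 4.36 and 4.41 on ALA, 4.23, 4.07, 4.46 and 4.16 on X-ray and 4.40, 3.80, 3.61 and 4.08 on combined arrays. X-ray 3 and combined 1 lay within the unirradiated range, and H2afx fell by 0.33 (SE 0.10, adjusted p = 0.0323). This call was made in 4 of 9 alternatives and in 6 of 16 fits with 1 array left out (adjusted p up to 0.186).

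The Mre11a probe spans an exon junction in the array annotation (mm9), so that its 60 bases lie on both sides of an intron of 890 bases. It is printed with the Brca1 junction probe described further on, whose 2 parts lie on both sides of 3977 bases.
Mre11a probe, chr9:14637146-14638095, strand +: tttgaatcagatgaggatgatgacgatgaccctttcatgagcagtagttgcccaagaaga
Brca1 probe, chr11:101359283-101363319, strand -: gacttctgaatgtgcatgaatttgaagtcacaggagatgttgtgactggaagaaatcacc
A second Mre11a probe was also lower, and of the 18 members with more than 1 probe past the filter, 9 had every probe called lower. In 3 (Xrcc2, Atm and Atr) the probes were split between called and not called. In the other 6 (Brca1, Rad52, Wrn, Mus81, Fancg and Rad17) no probe was called, and in 16 of the 18 every probe lay below 0.

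Among the genes of loading and strand exchange, 7 of 9 tested members fell, of 12 listed. Rad51ap1, which stimulates strand pairing, read 1.48, 1.70, 1.47 and 1.72 on the control arrays, 1.68, 1.42, 1.49 and 1.67 on ALA, 0.54, 0.75, 1.25 and 0.95 on X-ray and 1.34, 0.39, -0.50 and 0.46 on combined arrays. No irradiated array reached the lowest unirradiated one, although combined 1 came within 0.1 of it. Rad51ap1 fell by 0.93 (SE 0.20, adjusted p = 0.00525), to 52.5% of the unirradiated mean. Brca2, a mediator of strand exchange, read 1.26, 1.58, 1.36 and 1.57 on the control arrays, 1.23, 1.49, 1.43 and 1.22 on ALA, 0.55, 0.74, 1.28 and 1.13 on X-ray and 1.11, 0.31, -0.26 and 0.58 on combined arrays. X-ray 3, at 1.28, was above 3 of the unirradiated arrays, while combined 3 was far below all others. Brca2 fell by 0.72 (SE 0.17, adjusted p = 0.00875).

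Rad54b and Rad54l are translocases that act on chromatin during strand exchange. Rad54b read 0.12, 0.22, 0.23 and 0.02 on the control arrays, 0.07, 0.02, -0.01 and 0.13 on ALA, -0.87, -0.51, -0.21 and -0.19 on X-ray and -0.18, -0.74, -1.51 and -0.47 on combined arrays, with no overlap. Rad54l read -0.39, -0.43, -0.37 and -0.23 on the control arrays, -0.61, -0.37, -0.51 and -0.49 on ALA, -1.28, -1.15, -0.69 and -0.56 on X-ray and -0.46, -1.24, -1.89 and -1.10 on combined arrays, with X-ray 4 and combined 1 inside the unirradiated range. Rad54b fell by 0.69 (adjusted p = 0.00865) and Rad54l by 0.62 (adjusted p = 0.0172). Other genes of this group fell by smaller amounts, Rad51c by 0.45, Xrcc2 by 0.36 and Xrcc3 by 0.39, with adjusted p from 0.0394 to 0.0482. Rad52, an annealing protein, was not called at -0.22 (adjusted p = 0.387). A second Rad52 probe lay at -0.62 (adjusted p = 0.0531 with each probe tested on its own). In the combined group against ALA that probe was called in the same fit (-1.08, adjusted p = 0.0243).

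Helicases and nucleases that act on joined molecules showed the fewest calls, 1 of 5. Brip1, the helicase bound to BRCA1, read 1.60, 1.41, 1.20 and 1.44 on the control arrays, 1.02, 1.24, 0.90 and 1.11 on ALA, 0.47, 0.16, 1.03 and 0.54 on X-ray and 0.98, 0.03, -0.43 and 0.34 on combined arrays. combined 3 stood lowest, and X-ray 3 and combined 1 lay within the ALA range. Brip1 fell by 0.85 (SE 0.17, adjusted p = 0.00447). Blm, the helicase mutated in Bloom syndrome, read 1.24, 1.39, 1.24 and 1.44 on the control arrays, 1.56, 1.36, 1.29 and 1.41 on ALA, 1.18, 0.92, 1.37 and 1.66 on X-ray and 1.05, 0.40, 0.01 and 0.98 on combined arrays. X-ray arrays covered the whole control range, and the combined arrays all lay below it. Blm missed the threshold narrowly over both irradiated groups (-0.42, adjusted p = 0.0501). Mus81 and Eme1, the 2 subunits of a junction-cutting nuclease, and Wrn were not called, at -0.17, -0.31 and 0.09.

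The Fanconi genes had 7 of 8 tested members called, of 9 listed. Fancb, a core complex subunit, read 0.19, 0.19, -0.08 and 0.33 on the control arrays, -0.04, 0.12, -0.47 and -0.08 on ALA, -0.85, -0.93, -0.41 and -1.03 on X-ray and -0.30, -1.05, -1.20 and -0.71 on combined arrays. All irradiated arrays were below the control arrays, and ALA 3, at -0.47, lay among the irradiated ones. Fancb had the smallest p of all members, with a fall of 0.83 (SE 0.14, adjusted p = 0.00183), to 56.2% of the unirradiated mean. Fancl, the ubiquitin ligase of the core complex, read 1.83, 2.12, 1.98 and 1.91 on the control arrays, 1.94, 1.86, 1.95 and 1.82 on ALA, 1.49, 1.16, 1.77 and 1.29 on X-ray and 1.77, 1.30, 1.46 and 1.41 on combined arrays. The groups did not overlap, with X-ray 3 and combined 1 highest among the irradiated arrays at 1.77. Fancl fell by 0.47 (SE 0.10, adjusted p = 0.00467).

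Its substrates moved the same way. Fancd2 read 1.64, 1.86, 1.80 and 1.89 on the control arrays, 1.57, 1.92, 1.62 and 1.72 on ALA, 0.89, 0.89, 1.57 and 1.31 on X-ray and 1.30, 0.67, 0.54 and 1.17 on combined arrays. X-ray 3 and ALA 1 both read 1.57 to 2 decimals, and otherwise the irradiated arrays were clearly lower. Fanci, the partner of FANCD2, read 2.40, 2.50, 2.38 and 2.48 on the control arrays, 2.31, 2.47, 2.07 and 2.16 on ALA, 1.74, 1.72, 2.11 and 1.93 on X-ray and 2.10, 1.31, 0.84 and 1.65 on combined arrays. Here X-ray 3 and combined 1 lay just above ALA 3. Fancd2 fell by 0.71 (SE 0.13, adjusted p = 0.00296) and Fanci by 0.67 (SE 0.15, adjusted p = 0.00596). Fancm, the translocase that anchors the core complex, read -0.48, -0.50, -0.81 and -0.54 on the control arrays, -0.94, -0.70, -1.03 and -0.95 on ALA, -1.43, -0.96, -0.94 and -1.19 on X-ray and -0.91, -1.61, -2.14 and -1.56 on combined arrays. All irradiated arrays lay below all control arrays, and X-ray 2, X-ray 3 and combined 1 lay within the ALA range. Fancm fell by 0.60 (SE 0.15, adjusted p = 0.0103). Fanca fell by 0.61 (adjusted p = 0.0143) and Fancc by 0.25 (adjusted p = 0.0324), and Fancg was not called at -0.02.

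The checkpoint kinases did not move alike. Chek1, the effector of ATR, read -0.05, 0.19, 0.09 and 0.17 on the control arrays, -0.07, 0.08, 0.12 and -0.24 on ALA, -1.36, -1.10, -0.29 and -1.06 on X-ray and -0.26, -0.97, -1.36 and -0.87 on combined arrays. Both ranges were separate by a narrow margin, between ALA 4 at -0.24 and combined 1 at -0.26. Chek1 fell by 0.94 (SE 0.16, adjusted p = 0.00204), to 52.0% of the unirradiated mean. Chek2, the effector of ATM, read -2.11, -1.54, -1.62 and -1.67 on the control arrays, -1.60, -1.81, -1.54 and -1.59 on ALA, -2.13, -1.45, -1.58 and -1.59 on X-ray and -1.70, -1.53, -1.50 and -1.77 on combined arrays. Its groups overlapped throughout, and the change was 0.03 (95% interval -0.21 to 0.27, adjusted p = 0.867). Quantile normalization and the authors' table gave it the other sign, within that interval. The difference between the 2 genes was not itself tested.

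Atr read 2.43, 2.64, 2.32 and 2.26 on the control arrays, 2.33, 2.32, 2.46 and 2.22 on ALA, 2.22, 2.01, 2.44 and 2.32 on X-ray and 2.27, 1.85, 1.68 and 1.85 on combined arrays. Only 3 of the combined arrays and X-ray 2 lay clearly below the unirradiated range. Atr fell by 0.29 (SE 0.10, adjusted p = 0.0408). The call was made in 4 of 9 alternatives and in 5 of 16 fits with 1 array left out, with an adjusted p of 0.0549 with slide as a block and up to 0.241 in others. A second Atr probe was not called (-0.13, adjusted p = 0.438 with each probe tested on its own). Atm read -0.57, -0.32, -0.65 and -0.68 on the control arrays, -0.76, -0.61, -0.93 and -0.84 on ALA, -0.80, -0.92, -0.69 and -0.56 on X-ray and -0.81, -1.07, -1.22 and -1.06 on combined arrays. Only the combined group stood apart from control, and Atm was not called over both irradiated groups (-0.22, adjusted p = 0.0777). A second Atm probe was called in that comparison (-0.47, adjusted p = 0.00885 with each probe tested on its own).

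Of the checkpoint clamp, its loader and the mediators, 4 of 5 tested members fell. Rad1, a subunit of the clamp that is set down at damage, read 0.08, 0.37, 0.26 and 0.21 on the control arrays, 0.47, -0.08, 0.66 and 0.60 on ALA, -0.77, -0.30, -0.04 and -1.03 on X-ray and -0.29, -0.28, -0.46 and -0.57 on combined arrays. Among irradiated arrays X-ray 3 alone reached the lowest ALA array. Topbp1, which activates ATR, read 1.20, 1.50, 1.56 and 1.52 on the control arrays, 1.47, 1.51, 1.70 and 1.60 on ALA, 0.68, 1.08, 1.46 and 1.26 on X-ray and 1.06, 0.49, 0.48 and 0.90 on combined arrays. X-ray 3 and X-ray 4 lay above control 1, so these ranges overlapped. Rad1 fell by 0.79 (SE 0.14, adjusted p = 0.00267) and Topbp1 by 0.58 (SE 0.12, adjusted p = 0.00505). Clspn, which holds CHEK1 to ATR, fell by 0.71 and Hus1, another clamp subunit, by 0.32 (adjusted p = 0.021 and 0.0292). Rad17, the clamp loader, was not called at -0.11.

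**Figure D3:**
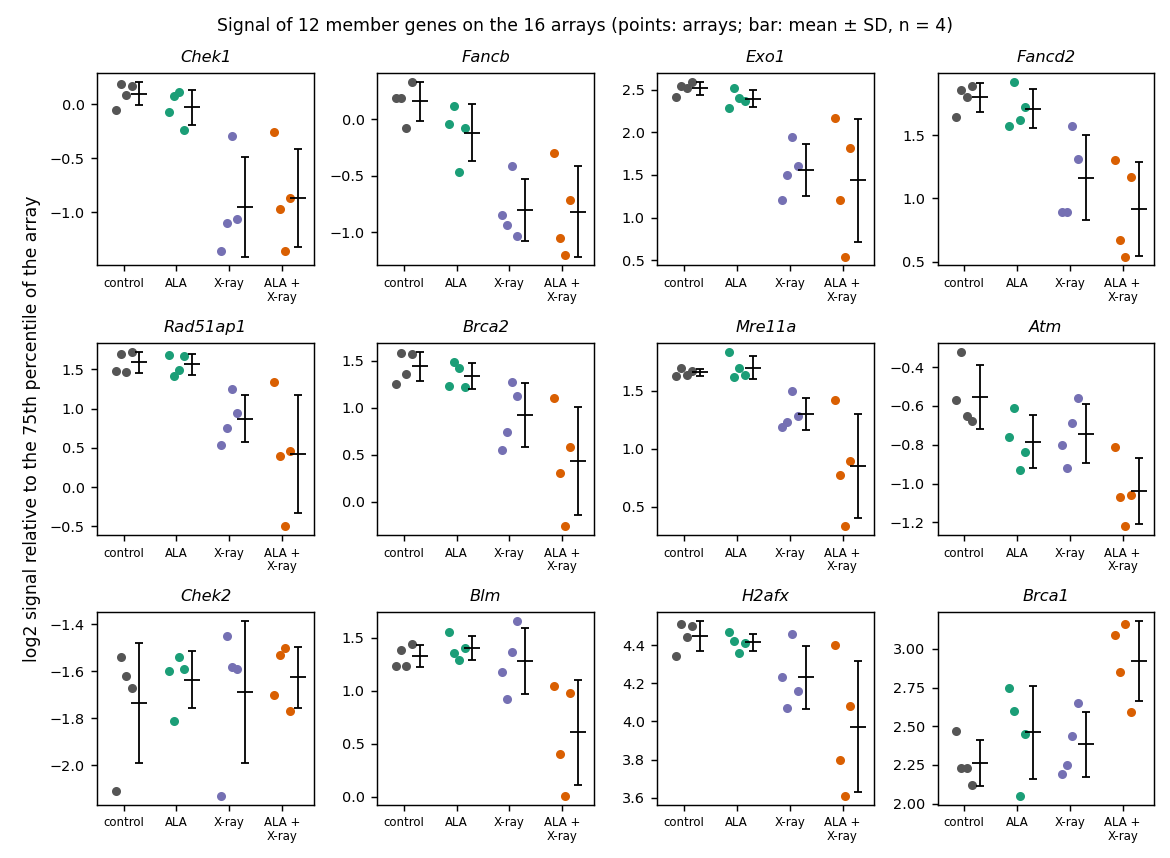
Log2 signal relative to the 75th percentile of the array for 12 members in the 4 groups; points are arrays and the bar is the mean ± SD (n = 4). Chek1, Exo1, Fancd2, Rad51ap1 and Mre11a have no overlap between irradiated and unirradiated arrays, Chek2 overlaps throughout, and Brca1 is highest under ALA plus X-ray.

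In 7 members (Rad51ap1, Rad54b, Mre11a, Exo1, Fancd2, Fancl and Chek1) every irradiated array lay below every unirradiated one, against 1.9% of all genes. Within slides, where the mean of the 2 irradiated arrays was set against that of the 2 unirradiated ones, the members' median was -0.37, -0.64, -0.49 and -0.42 on slides 1 to 4. The corresponding medians of all genes were -0.04, -0.11, -0.03 and -0.06. On each slide 31 to 34 of the 36 members lay below 0. Of the members, 28 were below 0 on all 4 slides, Wrn and Chek2 on 2, and Brca1 on 0.

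X-ray alone, set against control, gave few calls. Called were Chek1, Fancb and Fancl, 3 of 36 members, all lower, against 3.37% of all genes (1.38% lower and 1.99% higher). Chek1 fell to 48.2% of the control mean (log2 change -1.05, SE 0.23, adjusted p = 0.0306), Fancb to 51.3% (adjusted p = 0.0272) and Fancl to 69.1% (adjusted p = 0.0485). The members' median was -0.37, and 32 of 36 lay below 0, against a median of -0.02 over all genes. In 16 members no X-ray array overlapped a control array, all of them lower, against 10.5% of all genes (7.83% were separate on the higher side). Exo1 (-0.96, adjusted p = 0.0607), Brip1 (-0.86, adjusted p = 0.0657) and Rad1 (-0.77, adjusted p = 0.054) lay just outside the threshold.

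The 3 calls with X-ray alone depended on which arrays were in the fit, as did those over all genes. None was made without control replicate 1, 2 or 4, with 158, 2 and 5 of all genes called. Nor was any made without X-ray replicate 1, 2 or 4, with 1, 11 and 5 of all genes called. Without control replicate 3, 1 member and 242 of all genes were called. Over the 16 fits that left out 1 array, the log2 change was -1.275 to -0.917 for Chek1. It was -1.093 to -0.887 for Fancb and -0.647 to -0.445 for Fancl. Without X-ray replicate 3, the X-ray array nearest to control, 7 members and 836 of all genes were called. Leaving out combined replicate 1 or 3, which enter only through the shared estimate of spread, gave 11 and 9, with 1087 and 937 of all genes called in place of 519. Median scaling left 0, with 28 genes called of all genes and 3.57% of them lower in place of 40.8%. Within slides the median of X-ray minus control was -0.54, -0.58, -0.17 and -0.28.

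ALA alone was not separable from control in these genes. Limma called 0 of 36 members and 0% of all genes. Without adjustment, Fancg alone had p under 0.05 (-0.29, adjusted p = 0.779), and 961 of 15399 genes did. Fancg was also the 1 member with separate ranges, lower with ALA, against 2.51% of all genes (3.19% on the higher side). All the alternatives tried also called 0 members. The members' median was -0.07, and the changes ran from -0.35 (Brip1) to 0.20 (Brca1). For Chek1 the 95% interval of the ALA effect was -0.63 to 0.36, which shows how wide a change could go uncalled.

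Among comparisons of 1 group with another, the combined treatment against control gave the most member calls. Called were 24 members lower and 1 higher, against 24.9% of all genes (15.1% lower and 9.77% higher). Their median was -0.59, with -0.08 over all genes, and 33 of 36 lay below 0. Brip1 fell to 44.0% of the control mean, Rad51ap1 to 44.5%, Exo1 to 47.3%, Brca2 to 49.6%, Fancm to 50.9%, Fancb to 51.0%, Fanci to 51.1% and Chek1 to 51.2%, with adjusted p from 0.00646 to 0.0128. Atm and Blm, which were not called over both irradiated groups, fell here by 0.48 and 0.72 (adjusted p = 0.0155 and 0.0249). In 21 members all 4 combined arrays lay below all 4 control arrays, against 11.6% of all genes. The 25 calls became 14 without control replicate 2, 15 without combined replicate 2 and 15 without combined replicate 3. Calls over all genes went from 3828 to 1954, 2194 and 2191 in the same fits.

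Brca1, which promotes resection and brings PALB2 and BRCA2 to the break, went against the other members. It read 2.47, 2.23, 2.23 and 2.12 on the control arrays, 2.75, 2.60, 2.05 and 2.45 on ALA, 2.19, 2.25, 2.44 and 2.65 on X-ray and 3.09, 2.85, 3.16 and 2.59 on combined arrays. All the combined arrays lay above all control arrays, while X-ray arrays and ALA arrays overlapped control. Brca1 rose by 0.66 against control (SE 0.17, adjusted p = 0.0152), to 158% of the control mean. It was the only member called higher in that comparison and the only one in which higher array values did not overlap, against 8.99% of all genes. The call held in 9 of 10 alternatives and without each array in turn, and was lost under median scaling.

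The second Brca1 probe, the junction probe printed above, was too dim in control tumours to serve as a check. It read -3.63, -4.10, -2.66 and -4.42 on control arrays, -3.07, -4.63, -3.45 and -2.84 on ALA, -4.62, -3.30, -3.49 and -4.49 on X-ray and -2.33, -2.42, -1.79 and -3.29 on combined arrays. It was well above background on 1 of 4 control arrays, 3 ALA, 2 X-ray and 4 combined arrays, and it was not called against control (adjusted p = 0.0658 with each probe tested on its own). In that fit the brighter Brca1 probe was called, at an adjusted p of 0.0165. Against X-ray alone Brca1 was not called (0.54, SE 0.17, adjusted p = 0.0929), nor was the interaction (0.34, adjusted p = 0.45).

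**Figure D4:**
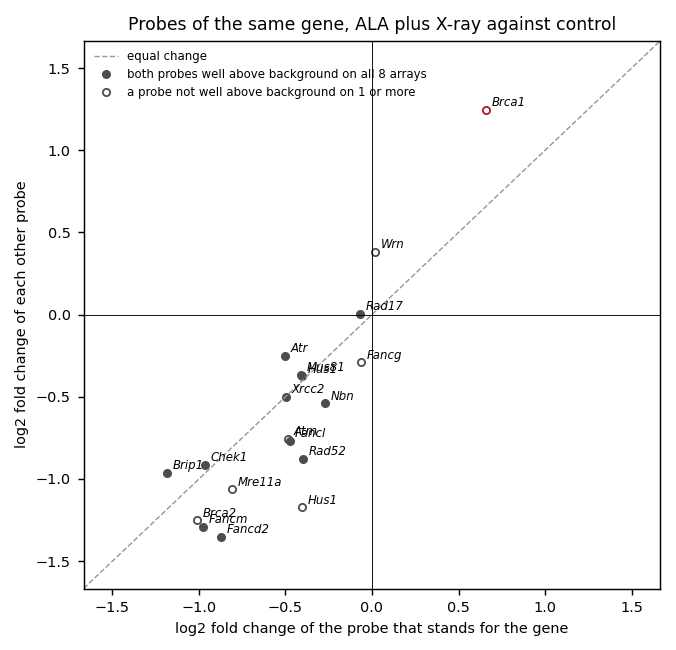
Log2 fold change of ALA plus X-ray against control for members with more than 1 probe past the filter; the horizontal axis is the probe that stands for the gene and the vertical axis each other probe of it, and the dashed line marks equal change. Open symbols mark a gene with a probe that was not well above background on all control and ALA plus X-ray arrays, among them Brca1 (red) and Wrn, the genes with both values above 0, and most others lie in the lower left.

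Whether ALA changed the response to X-ray was asked by setting the combined group beside X-ray alone and by the interaction term. Limma called 0 of 36 members in the first, against 2.07% of all genes, with 7 members under 0.05 without adjustment. Blm had the smallest adjusted p (-0.67, SE 0.21, adjusted p = 0.0888). No member had separate ranges in these groups, against 3.68% of all genes on the lower side and 2.72% on the higher. The members' median was -0.25, and by slide it was 0.43, -0.15, -0.83 and -0.29, so that slide 1 went the other way. Without combined replicate 1 there were 10 members called lower, and the calls over all genes rose with them, from 318 to 3135 of 15399. With array weights, which gave that array 0.279 and combined replicate 3 0.26, 5 members and 2165 genes were called (13.9% and 14.1%), and with a normexp background 1 member and 520 genes were. Under median scaling 15.2% of all calls were lower, in place of 37.1%.

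The interaction also called 0 members by limma, against 1.23% of all genes. Blm (-0.75, adjusted p = 0.195) and Fancg (0.51, adjusted p = 0.135) had p under 0.05 without adjustment. One setting, array weights, called 2 members (5.56%), against 13.1% of all genes. A normexp background, no filter on dim probes and leaving out combined replicate 1 each called 1 member. Of all genes 1.11%, 0.133% and 6.92% were called there. The lower share of all calls was 11.7% under median scaling, in place of 27% with the 75th percentile. The combined group against ALA gave 19 called members, all lower, against 24.1% of all genes (13.4% lower), with a median of -0.52. In 12 members the ranges were separate, all lower, against 11.5% of all genes (9.29% on the higher side). It shares its combined arrays with the comparison against control. Median scaling called 3 members (8.33%), against 12.3% of all genes, with 28.3% of all calls lower in place of 55.6%. The count was 8 without combined replicate 2 and 9 without combined replicate 3. Of all genes 2360 and 2219 were called there, in place of 3713. The member count was 10 without ALA replicate 4, with 2165 of all genes called. Without ALA replicate 1 or 2 it was 12, with 2431 and 2882 of all genes called. Without ALA replicate 1, 11 of the 12 were lower and 1 was higher.

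Arrays of the same group differed in how far the members went. The median difference from the control mean was -0.62, -0.41, -0.21 and -0.26 on X-ray 1 to 4 and -0.24, -0.69, -1.02 and -0.60 on combined 1 to 4. On the ALA arrays it was -0.10, -0.03, -0.09 and -0.05. Proliferation markers, a list of 24 genes of dividing cells, gave -0.73, -0.77, -0.27 and -0.52 on X-ray and -0.32, -1.14, -1.78 and -0.80 on the combined arrays. Both lists were nearest to control on X-ray 3 and combined 1 within their groups, and lowest of all on combined 3.

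**Figure D5:**
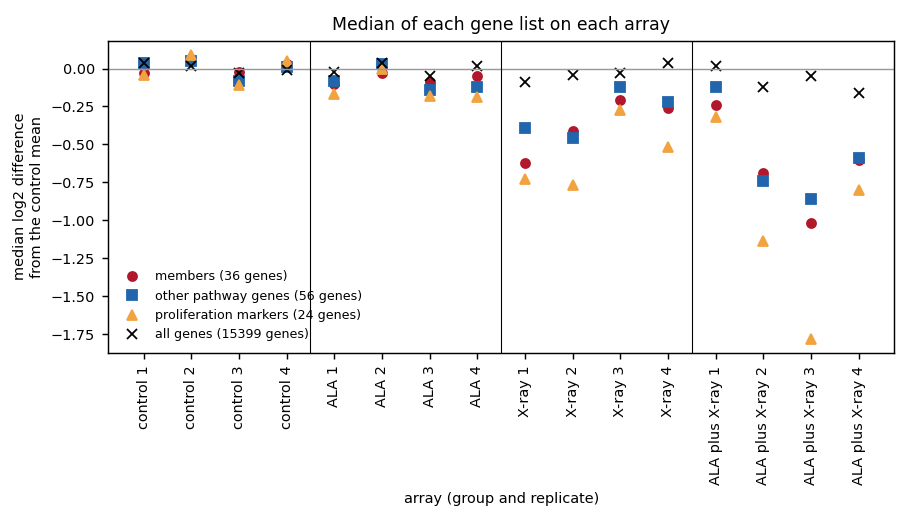
Median log2 difference from the control mean on each of the 16 arrays, for the 36 members, 56 other pathway genes, 24 proliferation markers and all 15399 genes. Members, pathway genes and proliferation markers are lowest on ALA plus X-ray 3, where the members reach -1.02 and the markers -1.78, and all genes stay near 0.

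Over irradiated against unirradiated arrays 19 of the 24 proliferation markers fell and 0 rose, with a median of -0.72. Of all genes 15.1% were lower and 10.3% higher. Pcna, the sliding clamp of replication, fell by 0.70 (adjusted p = 0.00117), and Mki67, a marker of cycling cells, was not called at -0.65 (adjusted p = 0.0546). Summed on the linear scale, the markers reached 514 to 615 in control arrays, 484 to 560 with ALA, 336 to 455 with X-ray and 195 to 481 with both. That of the members was 104 to 112, 99.8 to 106, 74.7 to 96.4 and 63.8 to 98.3 in the same order. The part of cell division in the members' fall was not tested.

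Other genes of these pathways, a list of 59 of which 56 were tested, were lowered by irradiation too. Over both irradiated groups 32 fell and 0 rose, against 15.1% of all genes lower and 10.3% higher, with a median of -0.41. X-ray alone lowered 6 of them and the combined treatment 33, against 1.38% and 15.1% of all genes. The 6 of smallest p over both irradiated groups were Dna2, Fignl1, Usp1, Tipin, Rpa2 and Timeless. Dna2, a resection nuclease, fell by 0.87, and Usp1, which removes ubiquitin from FANCD2, by 0.78. Fignl1, an ATPase of this pathway, fell by 0.69, and Tipin and Timeless, partners in fork protection, by 0.68 and 1.19. Rpa2, a subunit of the single-strand binding protein, fell by 0.67. Adjusted p for these 6 ran from 0.000925 to 0.00328.

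Markers of other cells also differed between the groups. The summed level of 10 macrophage markers ran from 61.5 to 111 in control arrays, 12.3 to 38.8 with ALA, 18.9 to 104 with X-ray and 147 to 278 with both. Against control, all 10 lay below 0 with X-ray alone, where the members were also lower, and all 10 lay above 0 with the combined treatment, where 3 were called higher. Of 8 fibroblast markers 7 were called higher in the combined group against ALA. They summed to 27.5 to 106 in control arrays, 15.9 to 98.9 with ALA, 29.3 to 69.2 with X-ray and 59.7 to 421 with both. Skeletal muscle markers summed to 0.965 to 173, 0.774 to 3.72, 0.644 to 19.2 and 1.02 to 440, with 0 of 10 called in any comparison. Erythroid markers summed to 60.1 to 173, 280 to 698, 26.1 to 819 and 23.4 to 54.7. In the combined group against ALA 3 of 4 were called lower, with 13.4% of all genes. Endothelial markers summed to 5.49 to 15.4 over all arrays. Of the T and NK markers 3 of 8 were tested, with sums up to 2.74, and Cd4 and Ncr1 were above background on no array.

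The summed level of the 10 melanocyte markers ran from 1070 to 1260 in control arrays, 1130 to 1220 with ALA, 1210 to 1380 with X-ray and 1010 to 1440 with both, and over both irradiated groups 0 were called lower and 2 higher. In the combined group against control 1 was called lower and 2 higher. Median sums were highest in the combined group for macrophage (252), fibroblast (173), skeletal muscle (41.2), T and NK (0.75) and melanocyte markers (1280). That of melanocyte markers was 1250 with X-ray, and 6 of the 10 lay below 0 in the combined group against control. Brca1 was highest in the combined group too. Endothelial markers had their highest median sum in control (9.96) and erythroid markers with ALA (386). The part of any of these cells in the members' values was not tested.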

How the data were processed

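Deposited scanner files hold spot intensity on a linear scale (background-subtracted processed signal, mean signal, local background) from Agilent Feature Extraction 10.7.3.1, per the file headers; the submitters' processing notes name 9.5.3.1. The deposited value table holds the authors' intensity on a linear scale, with a median of 31.881 in every column; how it was scaled is not stated, and it was used as an alternative. Its log2 values correlated with the log2 processed signal of the same arrays at 0.9925 to 1.

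The log2 processed signal minus the array's 75th percentile was used. Control spots (1639 an array) and outlier spots were left out, spots of a probe averaged, probes kept that were well above background on 4 or more of 16 arrays, and the brightest probe stood for its gene. Probes were named through RefSeq by accession, then symbol; 11053 kept the file's name. Linear models (limma 3.58.1, R 4.3.3, package data.table, version 1.17.8; 12 residual and 2.3 prior degrees of freedom) were fitted on 4 group means over all genes, two-sided, with Benjamini-Hochberg adjustment in each of 7 comparisons. The fit was tested on simulated data.

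Array values are printed for the members called for X-ray alone, for the combined group against X-ray or for irradiated against unirradiated, up to the 14 of smallest p in the last, and for Atm, Atr, Chek1, Chek2, Brca1, Brca2, Fancd2, Fanci, Rad54l, Blm and H2afx. The members and lists were chosen with earlier results of these data known. P-values set the difference between groups against the spread between these preparations, as 1 estimate shared by the 4 groups. The median SD of a gene was 0.194 in control and 0.334 in the combined group. Alternatives were normexp (offset 50), quantile and median scaling, the authors' table, other filters, mean of probes, slide as block, array weights, fits on the arrays compared, each array left out and, chosen after seeing the data, every probe tested on its own.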

Additional observations from a re-analysis of the deposited data

How the results depend on the processing

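Counts of members called moved as follows. X-ray against control (3 called) gave 7 with a normexp background, 0 with median scaling, 0 with no filter on dim probes, 6 with probes well above background on all arrays, 20 with array weights and 6 with only the arrays compared, and leaving out 1 array gave 0 to 11. The calls over all genes rose from 519 to 2963 with array weights, 713 with only the arrays compared and 1087 without combined replicate 1. With median scaling 28 of all genes were called. A normexp background called 487 of all genes, fewer than 519, although more members were called. The combined group against X-ray (0 called) gave 1 with normexp and 5 with array weights, and 0 to 10 with 1 array left out. Normexp called 3.38% of all genes and array weights 14.1%, in place of 2.07%. The combined group against control (25 called) gave 16 with median scaling, 16 with no filter and 11 with only the arrays compared. The shares of all genes called were 13.9%, 9.23% and 10.4% in that order, in place of 24.9%. With 1 array left out this comparison gave 14 to 27 members. The combined group against ALA (19 called) gave 3, 11, 29 and 4 with median scaling, no filter, array weights and only the arrays compared. The shares of all genes called were 12.3%, 8.62%, 41.8% and 10.3% in that order, in place of 24.1%. With 1 array left out this comparison gave 8 to 26 members. The interaction (0 called) gave 1 with normexp, 1 with no filter and 2 with array weights, and 0 to 1 with 1 array left out. Normexp, no filter and array weights called 1.11%, 0.133% and 13.1% of all genes. Irradiated against unirradiated (26 called) gave 14 with median scaling, and 18 to 28 with 1 array left out. Median scaling called 12% of all genes there, in place of 25.4%. No member that was called changed sign under any alternative run. Median scaling moved the median of all genes for ALA against control from -0.00 to -0.12 and the members' from -0.07 to -0.19. The cause of these moves was not tested.

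Same-numbered arrays share a slide, and nothing in the labels pairs animals. Residuals of 24 same-numbered pairs correlated at -0.46 to 0.54, with 9 over 0.1, and 11 of 16 arrays correlated best with their own number. With slide as a replicate block, X-ray against control gave 2 members (Fancl was lost), the combined group 25 against control, 17 against ALA and 0 against X-ray, irradiated against unirradiated 26, and both ALA against control and the interaction 0. These were not all the same members. Atr was lost over both irradiated groups (adjusted p = 0.0549) and Blm gained (0.038). Hus1 was lost (0.0675) and Rad51c gained (0.0418) in the combined group against control, and against ALA Atr, Clspn and H2afx were lost (0.053, 0.0502 and 0.052) and Rad51c gained (0.0372). Group size and dim probes limit what could be called, and Bard1, Palb2 and Dmc1 have no tested value.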
